A study of Mus musculus with 31 samples.

Results

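CD4+ T cells were compared with the whole spleen of the same animals in 3 control mice, VM211, VM216 and VM645-WT. Each mouse gave 1 library of CD4+ cells and 1 of whole spleen, so the comparison rests on 6 of the 31 libraries of the series and was paired by mouse number. The mice carry the genotype CD4-Cre(WT) on the strain written as C57B/6, are labelled normal, and stand as controls in a series on T cell lymphoma driven by a fusion of Vav1 and Myo1f. Cre, a DNA recombinase, is driven by Cd4 in these mice, so the controls carry it too, and no fusion allele is labelled. A further 5 libraries, from normal mice of the genotype CD4-CreERT2 (WT), gave the same contrast in other animals: CD4+ cells of A1 and A3 and whole spleen of A1, A2 and A3. CD4+ libraries of 2 more normal mice, TA018 and TA019, genotype CD4-Cre-ERT2(WT), were used for the share of immunoglobulin and T cell receptor genes alone. Age, sex and the way CD4+ cells were isolated are not given in the sources used here. The number VM645 also stands on a tumor library of the fusion genotype, and the control, whose label adds WT, was taken as another animal. The labels do not say whether the CD4+ cells were resting.

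The spleen filters blood and holds immune cells in compartments. White pulp is made of B cell follicles and of T cell zones, where CD4+ T cells meet antigen-presenting cells. Red pulp holds macrophages that clear old red cells, and also neutrophils, monocytes and plasma cells. CD4+ T cells recognise peptides on MHC class II through the T cell receptor and its CD3 chains. They include naive cells, regulatory T cells that restrain responses, and follicular helper cells that support B cells in germinal centers.

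Each of the 6 libraries held 29091183 to 37568512 gene counts, and 18711 genes had enough counts to be tested. Levels are given as CPM, read counts normalised to library size with TMM scaling, in the order VM211, VM216, VM645-WT, and differences as log2 fold changes of CD4+ cells minus spleen with their standard error (SE). A gene was called at an adjusted p under 0.05 in edgeR's quasi-likelihood test with mouse as a block. By this rule 2887 genes, 15.4% of those tested, were higher in CD4+ cells and 3018, 16.1%, were lower. These counts were 1284 and 1504 with VM216 left out and 1727 and 1930 with VM211 left out. Counts of gene lists below are read against these 2 shares, and the median log2 change over all genes tested was -0.0066. Spearman correlations of 0.964 to 0.978 among CD4+ libraries and 0.967 to 0.975 among spleens compared with 0.914 to 0.939 between the tissues. Both libraries of a mouse matched in sex-linked genes, with 3534 to 7060 counts of the Y-linked Ddx3y in VM211 and VM216 and 9227 and 13275 counts of Xist in the spleen and CD4+ cells of VM645-WT. In bulk RNA, fewer cells of a type and less RNA per cell cannot be told apart.

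Transcripts of the T cell receptor complex and its coreceptors were higher in CD4+ cells throughout: 18 of 18 listed genes passed upwards, with a median log2 change of 2.02. Cd4, the coreceptor that names the cells (chr6:124864692-124888221 in the coordinates of the CD4-CreERT2 tables), stood at 726, 755 and 638 CPM in CD4+ cells and at 56.9, 55.8 and 61.8 CPM in spleen. All CD4+ libraries lay far above all spleens, a 12.1-fold ratio of means, and the log2 change was 3.60 ± 0.12 (SE, adjusted p = 8.04e-06). Cd6 and Cd5, surface regulators of receptor signalling, had log2 changes of 2.92 and 2.76, and the costimulatory receptor Icos one of 2.61. The signalling chains of CD3 followed with smaller changes, 2.36 for Cd247, 2.19 for Cd3e, 1.77 for Cd3g and 1.46 for Cd3d. Cd8a, which marks the cytotoxic T cells that a CD4+ preparation should leave behind, was at 11.6, 13.2 and 10.2 CPM in CD4+ cells and 94.9, 56.1 and 50.9 CPM in spleen, and was lower by a log2 change of -2.48 ± 0.19 (SE, adjusted p = 8.90e-05 by edgeR). Other genes listed for CD8 T cells changed less evenly. Of 9 tested, 6 were lower, Cd8a among them, and 1, Gzmk, was higher, with a median log2 change of -0.72. Their summed level in CD4+ libraries was 55.6%, 59.1% and 58.4% of that in spleen. Cd4, the CD3 chains and Cd8a thus moved in the labelled direction in each of the 3 mice.

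**Figure D1:**
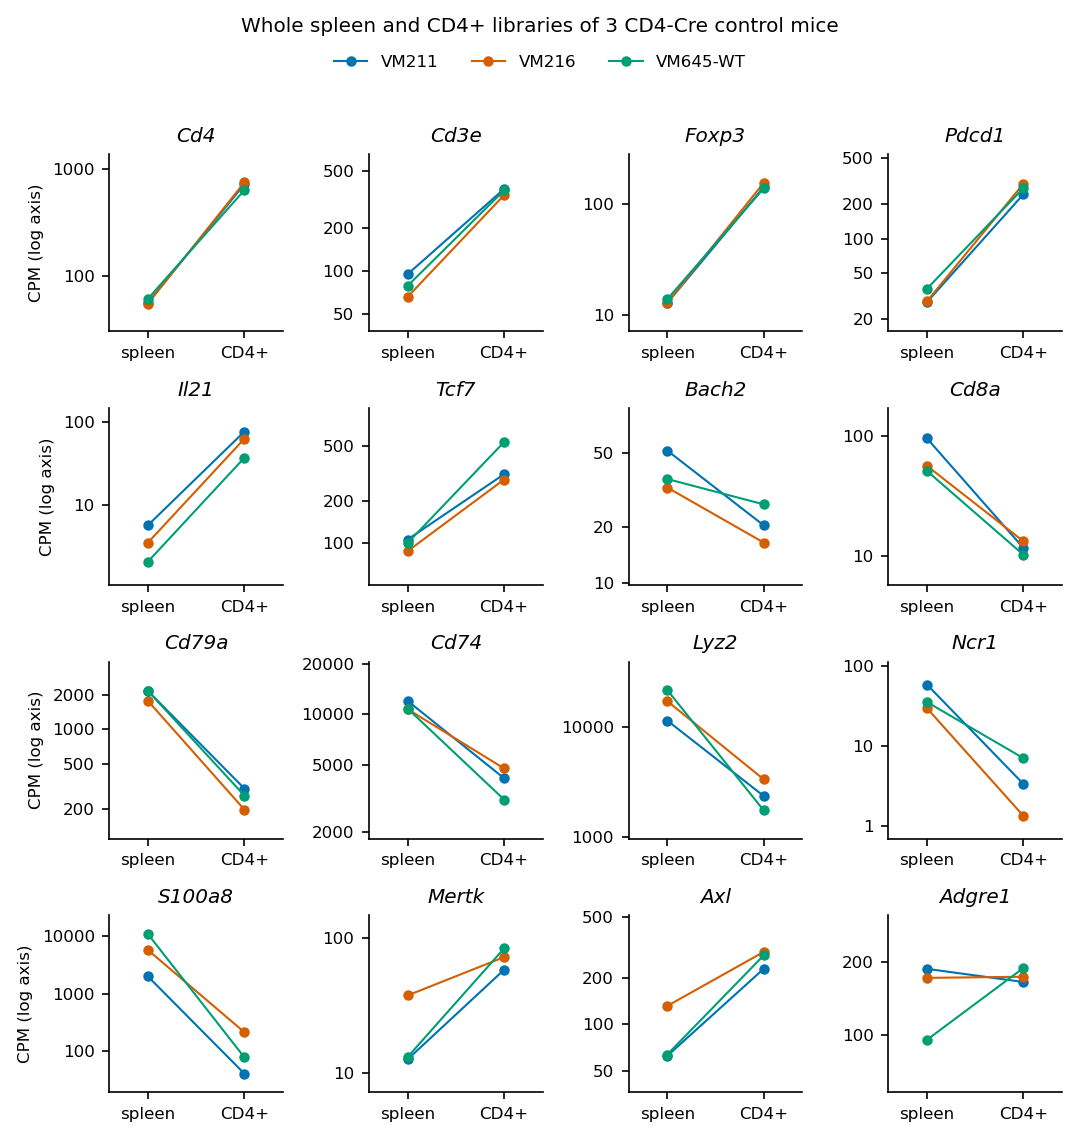
CPM on log axes of 16 genes in whole spleen and CD4+ cells, 1 line for each of the 3 mice. Cd4, Cd3e, Foxp3, Pdcd1, Il21 and Tcf7 rise in every mouse, Bach2, Cd8a, Cd79a, Cd74, Lyz2, Ncr1 and S100a8 fall in every mouse, Mertk and Axl are higher in CD4+ cells, and Adgre1 differs in direction between mice.

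Downstream of the receptor, 25 of 28 genes of proximal T cell receptor signalling were higher and 1 was lower, with a median log2 change of 1.49. The kinase Zap70, which binds phosphorylated CD3 chains, was at 164, 151 and 127 CPM in CD4+ cells against 36.2, 19.8 and 24.7 CPM in spleen. Prkcq, the kinase that links the receptor to NF-kappa B, had a log2 change of 2.37, the phosphatase-like regulator Ubash3a one of 2.38 and the adaptor Trat1 one of 2.56. Trat1 was uneven among mice, at 42.4, 49.7 and 128 CPM in CD4+ cells, but its spleens followed the same order at 7.17, 8.05 and 22.6 CPM. The member that was lower was Pag1, a membrane adaptor that recruits an inhibitory kinase, at a log2 change of -0.64. Vav1, the exchange factor of this pathway and a partner of the lymphoma fusion, was at 274.2, 258.3 and 235.9 CPM in CD4+ cells and 221, 222 and 209.7 CPM in spleen. Its ranges did not overlap, yet the log2 change of 0.23 ± 0.09 (SE) did not pass, with an adjusted p of 0.0869 by edgeR. Myo1f, the other partner and a class I myosin known from myeloid cells, was at 412, 382 and 254 CPM and 333, 395 and 381 CPM, with overlapping ranges and a log2 change of -0.11 ± 0.16 (SE) that did not pass (adjusted p = 0.658 by edgeR). Among 20 genes of the Vav, Rac and class I myosin families, 3 were higher and 7 lower. These counts were 1 and 2 without VM216, 2 and 3 without VM211, and 5 and 6 without VM645-WT. The lower ones included the myosins Myo1e (-0.91), Myo1c (-0.82) and Myo1d (-0.94), and the higher ones the Rac activator Dock2 (0.62).

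Adaptor chains that carry an immunoreceptor tyrosine-based activation motif (ITAM) split by the receptor they serve. The 4 CD3 chains were higher. Cd79a and Cd79b, the signalling chains of the B cell receptor, were lower by log2 changes of -3.03 ± 0.10 and -2.94 ± 0.10 (SE). Fcer1g, the shared chain of Fc receptors, was lower by -1.51 ± 0.09 (SE), and Tyrobp, the adaptor of myeloid and NK cell receptors, by -1.70 ± 0.10 (SE). Hcst, an adaptor without this motif that pairs with NKG2D, was at 111, 116 and 129 CPM in CD4+ cells and 121, 95.6 and 88.3 CPM in spleen, with overlapping ranges, and did not pass. Divided by gene length, CD4+ libraries held a mean of 219 CPM per kilobase of Cd3d and 197 of Cd3g, but 622 of Tyrobp and 350.4 of Fcer1g. On this scale Tyrobp and Fcer1g stood above the CD3 chains even in the CD4+ libraries. Both were far below their level in spleen (1996 and 991 CPM per kilobase). The order depends on the deposited gene lengths. Undivided, mean CPM in CD4+ libraries was 643 for Cd3g, 415 for Tyrobp, 398 for Cd3d and 358 for Cd3e. It was 306 for Fcer1g and 301 for Cd247.

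**Figure D2:**
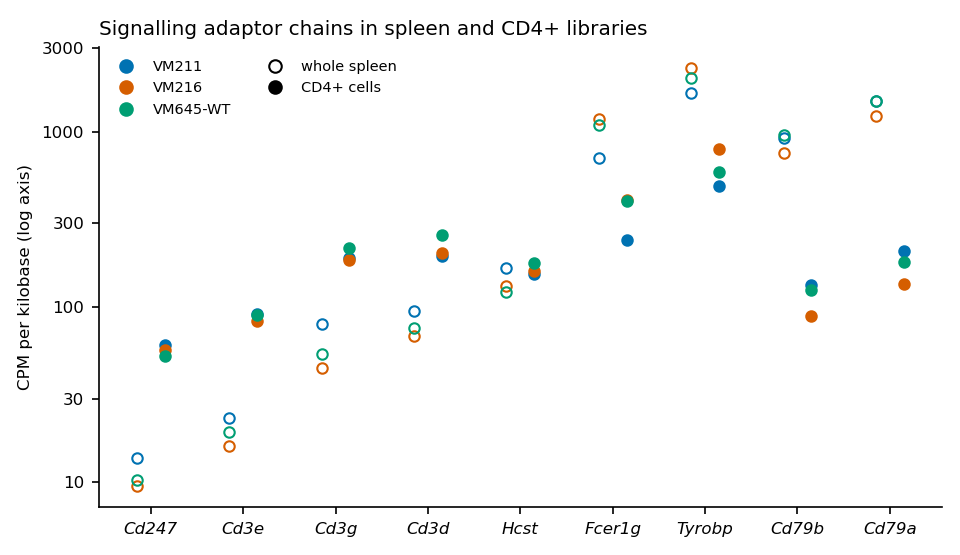
CPM per kilobase of gene length on a log axis for 9 adaptor chains, open circles for spleen and filled circles for CD4+ cells, coloured by mouse. The 4 CD3 chains are higher in CD4+ cells, Hcst overlaps, and Fcer1g, Tyrobp, Cd79b and Cd79a are lower. Tyrobp is the highest chain in the CD4+ libraries on this scale, which depends on gene length.

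Lists of T cell subsets had the largest median increases. The regulatory T cell list had 13 of 14 members higher, 1 lower and a median log2 change of 2.70. Foxp3, the transcription factor that defines these cells, was at 144, 157 and 140.1 CPM in CD4+ cells and 12.7, 12.8 and 13.8 CPM in spleen, a log2 change of 3.49 ± 0.11 (SE, adjusted p = 8.04e-06 by edgeR). Its levels were even among mice in both tissues, and the groups lay far apart. Lrrc32, which holds latent TGF-beta on the surface of regulatory T cells, had a log2 change of 3.25, the Ikaros-family factor Ikzf4 one of 3.09, and Tnfrsf4 and Il2ra, receptors for OX40 ligand and interleukin 2, 2.84 and 2.80. Capg, an actin-capping protein also made by myeloid cells, was the member that was lower (-0.82).

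The follicular helper list had 9 of 11 members higher, 1 lower and a median of 2.80. Il21, the cytokine by which follicular helper cells drive B cells, was at 76.7, 63 and 37.2 CPM in CD4+ cells against 5.74, 3.54 and 2.09 CPM in spleen. It had the largest increase among the genes named, a log2 change of 4.0 ± 0.15 (SE, adjusted p = 8.04e-06 by edgeR), and the mice kept one order in both tissues, VM211 highest and VM645-WT lowest. Angptl2, a secreted angiopoietin-like protein, was at 182, 146 and 61.3 CPM and 9.98, 10.2 and 7.95 CPM, with VM645-WT lowest in both tissues. Pdcd1, the inhibitory receptor PD-1, was at 244, 301 and 276 CPM against 28, 28.4 and 36.6 CPM, and Tox2 had a log2 change of 3.01. Cxcr5, the receptor that leads both follicular helper cells and B cells into follicles, was the member that was lower. It stood at 104, 103 and 134 CPM in CD4+ cells and 137, 174 and 176 CPM in spleen. Without VM216 the follicular helper list had 8 higher and 0 lower. Of T helper 2 and T helper 17 genes, 9 of 14 had enough counts to test. Among these 6 were higher, such as Gata3 (2.77) and Ccr8 (2.88), and 1, Ccr6, was lower. The genes of the effector cytokines Il5, Il13, Il17a, Il17f and Il22 stayed below the filter on low counts.

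Among the 15 largest increases of well-expressed genes were also Tnfsf11 (3.59), the ligand of RANK, Cd40lg (3.28), by which helper T cells activate B cells, and Ccr4 (3.39), a homing receptor of memory and regulatory T cells. They included genes less tied to T cells in general use, such as Ptpn13 (3.51), a tyrosine phosphatase, the growth factor Bmp7 (3.41), the kinase-dead receptor Ephb6 (3.21) and the titin gene Ttn (3.47). Ptpn13 was at 45.6, 46 and 26 CPM in CD4+ cells and 3.44, 4.31 and 2.51 CPM in spleen, without overlap. Bmp7 was even among mice, at 30.6, 30.2 and 28.5 CPM and 2.84, 2.39 and 3.21 CPM.

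Genes of the naive state gave a divided picture: 10 of 21 were higher and 5 lower, with a median of 0.56, and 3 were lower without VM216. Tcf7 and Lef1, paired transcription factors of naive and memory T cells, both had a log2 change of 1.89, and Il7r, the survival receptor, one of 1.82. Tcf7 was highest in the CD4+ cells of VM645-WT, at 313, 286 and 531 CPM, while its spleens were even at 106, 87.9 and 101 CPM. The transcription factor gene Bach2, which restrains effector programs, was lower in CD4+ cells, at 20.4, 16.5 and 26.5 CPM against 51.6, 32.7 and 36.3 CPM. Its log2 change was -0.93 ± 0.18 (SE, adjusted p = 0.00609 by edgeR). Foxp1 (-0.69), Cxcr4 (-1.13) and Klf2 (-0.34) were lower too. Each of these 4 genes is also made by B cells. All 34 genes of the B cell list were lower in the same libraries, with none at 0. Their sum, which includes immunoglobulin genes, stood at 22.2% to 33.8% of the spleen level. The part of B cells in this result was not tested.

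Of 19 genes of T cell activation, 12 were higher and 4 lower, with a median of 1.12. The lower ones numbered 1 without VM211 and 2 without VM216. Il2, the T cell growth factor, was at 4.99, 4.81 and 7.07 CPM in CD4+ cells and 0.807, 0.347 and 1.74 CPM in spleen, low in both, and Egr1, an immediate early gene, at 117, 101 and 81.4 CPM and 41.1, 28.6 and 26.5 CPM. The chemokines Ccl3 (-1.84) and Ccl4 (-0.93) were lower. Of 20 cell division genes 1 passed, Ube2c, which was lower, and the list median was -0.19. The mice differed here, since the summed list stood at 129.5%, 101.2% and 57.1% of the spleen level. Without VM645-WT 3 were higher and the median was 0.18, and in CD4-CreERT2 controls 8 of 20 were higher with a median of 0.45, so no direction is read from this list. Of 20 DNA replication genes, 4 were higher, all subunits of the MCM helicase, with Mcm6 at 0.80. That share is near the background, and the count was 1 without VM216, 2 without VM211 and 10 without VM645-WT. Of 19 genes of dissociation and stress, 4 were higher and 7 lower, and 2 and 4 without VM216. Fos fell by 1.39 on the log2 scale while Hspa1b had a log2 change of 0.97, and Hspa1b was lower in both libraries of VM645-WT (731, 719 and 237 CPM in CD4+ cells and 379.8, 360.2 and 120.3 CPM in spleen).

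B cell identity genes were lower without exception: 34 of 34 passed downwards, with a median log2 change of -2.32. Cd79a was at 303, 198 and 262 CPM in CD4+ cells and 2179, 1784 and 2185 CPM in spleen, 8.06-fold lower on average (adjusted p = 8.04e-06 by edgeR). Pax5, the transcription factor that keeps B cell identity, had a log2 change of -3.32, Fcer2a, the CD23 receptor of follicular B cells, one of -3.35, and Vpreb3 one of -3.42. Summed over the list, CD4+ libraries kept 22.2%, 24.5% and 33.8% of the level in the spleen of the same mouse. The sum includes immunoglobulin constant genes such as Igkc and Ighm, and Cd79a alone had a ratio of means of 0.124. In CD4-CreERT2 controls the sum stood at 102.6% of spleen in A1 and 89.6% in A3, although 30 of the 34 genes were lower. Of 17 marginal zone and germinal center genes, 12 were lower and 1 higher. Cr2, the complement receptor of marginal zone B cells, had a log2 change of -2.94, and the germinal center genes Rgs13 and Gcsam changes of -4.38 and -3.23. S1pr2, shared by germinal center B cells and follicular helper T cells, was the member that was higher (0.64). The list had 0 higher and 8 lower without VM216, and 0 and 11 without VM211.

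Of 16 plasma cell genes, 15 were lower and 1 higher, with a median of -1.97. Ighg2c, a heavy chain constant gene, was at 97.7, 930.4 and 333 CPM in CD4+ cells and 664, 6378 and 2331 CPM in spleen. It differed widely among mice and its ranges overlapped, yet each CD4+ library was below its own spleen. Prdm1, a regulator of plasma cells that T cells also use, was higher (0.89). Immunoglobulin genes took 2.82% to 7.62% of gene counts in CD4+ libraries and 10.8% to 15.2% in spleen. T cell receptor alpha and beta genes took 0.260% to 0.289% and 0.0421% to 0.0620%. Other normal CD4+ libraries of the series spanned a wide range. Those of A1 and A3, of the genotype CD4-CreERT2 (WT), held 11.5% and 9.76% of counts in immunoglobulin genes, above the 9.48%, 5.53% and 9.25% in the spleens of A1, A2 and A3. Those of TA018 and TA019, of the genotype CD4-Cre-ERT2(WT) in a pre-lymphoma set, held 0.754% and 0.917% of counts in immunoglobulin genes and 0.268% and 0.270% in T cell receptor genes. Copies of immunoglobulin segments resemble each other closely, so counts of single segments are uncertain.

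Genes that present antigen on MHC class II were lower in step: 13 of 16 passed downwards and the other 3 did not pass, with a median of -1.23. Cd74, the invariant chain that guards the class II groove, was at 4169, 4768 and 3112 CPM in CD4+ cells and 12038, 10748 and 10839 CPM in spleen. H2-DMb2, a chain of the peptide-loading exchanger, had a log2 change of -2.02, H2-Ob, a chain of its inhibitor, one of -1.58, and the costimulatory receptor Cd40 one of -1.92. Summed over the list, CD4+ libraries held 34.0% to 49.5% of the spleen level. These promoters are known for a shared Y box that carries an inverted CCAAT. Upstream sequences of 4 members are shown, each with the 250 bases before the start site in RefSeq annotation of GRCm38.p6, 5′ to 3′ on the strand of the gene. Capitals mark the letters GATTGG or their reverse complement.
H2-Aa, chr17:34287824-34288073, minus strand: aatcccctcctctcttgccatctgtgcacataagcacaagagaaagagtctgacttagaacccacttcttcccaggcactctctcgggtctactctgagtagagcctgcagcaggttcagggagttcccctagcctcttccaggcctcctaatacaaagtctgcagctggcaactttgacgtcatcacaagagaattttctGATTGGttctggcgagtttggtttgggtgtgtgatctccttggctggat
H2-Eb1, chr17:34305617-34305866, plus strand: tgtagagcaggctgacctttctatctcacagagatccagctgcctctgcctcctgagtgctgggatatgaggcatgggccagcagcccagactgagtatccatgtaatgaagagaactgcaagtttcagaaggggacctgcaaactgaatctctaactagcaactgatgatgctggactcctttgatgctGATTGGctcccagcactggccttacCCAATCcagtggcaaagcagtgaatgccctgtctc
H2-DMb2, chr17:34144999-34145248, plus strand: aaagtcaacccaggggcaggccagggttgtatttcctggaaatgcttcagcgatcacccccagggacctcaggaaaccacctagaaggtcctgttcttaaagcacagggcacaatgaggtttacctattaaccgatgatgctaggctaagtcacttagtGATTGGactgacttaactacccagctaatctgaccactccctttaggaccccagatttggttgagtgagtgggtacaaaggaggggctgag
H2-Ob, chr17:34238655-34238904, plus strand: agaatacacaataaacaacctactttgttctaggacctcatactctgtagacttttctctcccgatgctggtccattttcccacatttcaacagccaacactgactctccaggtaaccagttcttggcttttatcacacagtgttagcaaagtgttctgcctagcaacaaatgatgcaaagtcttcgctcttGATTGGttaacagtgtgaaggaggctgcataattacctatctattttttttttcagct
The match began 49 bases before the start in H2-Aa, 60 and 35 in H2-Eb1, 91 in H2-DMb2 and 58 in H2-Ob. Over 300-base windows that reach 50 bases past the start, 8 of the 10 list members found in the promoter table held these letters on either strand, against 2710 of the 11779 tested genes with a promoter there. The letters were not particular to this list: 11 of 16 cell division genes and 8 of 17 DNA replication genes held them too. A match is a description of letters and not a bound site.

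The neutrophil list had the largest median decrease, with 18 of 18 genes lower and a median log2 change of -5.51. S100a8, a subunit of calprotectin, was at 41, 215 and 78.6 CPM in CD4+ cells and 2015, 5801 and 10986 CPM in spleen, a log2 change of -5.82 ± 0.45 (SE, adjusted p = 9.21e-05 by edgeR). Spleens differed widely among mice, VM645-WT highest and VM211 lowest, while among CD4+ libraries VM216 was highest. Ngp, a granule protein of young neutrophils, repeated that order at 48.9, 260.5 and 120.1 CPM and 1688, 5956 and 16048 CPM. Retnlg had a log2 change of -6.09, the protease Elane one of -5.74, and the chemokine receptor Cxcr2 one of -5.10. The summed list kept 4.12% of its spleen level in VM211, 4.79% in VM216 and 0.880% in VM645-WT. The 15 largest decreases of well-expressed genes also held the antimicrobial peptide gene Camp (-5.78), the granule enzyme Mpo (-5.08) and the surface marker Ly6g (-5.22). C/EBP and PU.1 factors are known for driving granule genes, and a promoter is shown for each. Capitals mark TTGCNNAA in Ngp and GAGGAAG in Lcn2, an iron-trapping lipocalin (-5.49), or their reverse complements.
Ngp, chr9:110419558-110419807, plus strand: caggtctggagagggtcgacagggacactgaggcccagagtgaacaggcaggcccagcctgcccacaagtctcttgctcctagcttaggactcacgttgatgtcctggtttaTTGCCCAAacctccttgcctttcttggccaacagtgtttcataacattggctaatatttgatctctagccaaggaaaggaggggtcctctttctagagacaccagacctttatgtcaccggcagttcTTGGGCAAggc
Lcn2, chr2:32387740-32387989, minus strand: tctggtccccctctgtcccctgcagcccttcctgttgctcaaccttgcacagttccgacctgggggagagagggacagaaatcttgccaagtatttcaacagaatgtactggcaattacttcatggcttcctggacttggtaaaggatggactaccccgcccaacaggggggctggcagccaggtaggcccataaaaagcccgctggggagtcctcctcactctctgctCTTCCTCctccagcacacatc
Of 16 neutrophil genes in the promoter table, 7 held the first motif, against 10.6% of tested genes with a promoter there, and 9 held the second, against 16.3%. The first was also in 4 of 10 plasma cell genes, and the second in 9 of 21 genes of proximal T cell receptor signalling, most of which were higher. A further 4 motifs were searched on both strands. CCCNNGGG, the core bound by EBF, was in 4 of 21 B cell genes against 20.6%. For factors of the GATA family, AGATAA was in 1 of 8 genes of the T cell receptor list against 8.74%. The TCF and LEF letters CTTTGA were in 4 of these 8 against 14.9%, and also in 5 of 10 MHC class II genes, which were lower in CD4+ cells. The RUNX letters TGTGGT were in 1 of the 8 against 16.1%. Among them Cd3d held CTTTGA at 2 places, in capitals below.
Cd3d, chr9:44981536-44981785, plus strand: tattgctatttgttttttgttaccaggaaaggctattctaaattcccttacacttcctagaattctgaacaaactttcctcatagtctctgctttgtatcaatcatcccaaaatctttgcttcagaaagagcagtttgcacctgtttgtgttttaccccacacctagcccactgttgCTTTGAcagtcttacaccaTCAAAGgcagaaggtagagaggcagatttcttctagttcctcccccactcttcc

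Transcripts of NK cells and of several myeloid cell types were also lower. NK cell genes were lower in 13 of 16 cases and did not pass in the other 3, with a median of -2.55. The receptor gene Ncr1 had a log2 change of -3.60 and Klra4 one of -5.70, which is uncertain because genes of its family are near-identical. Monocyte genes were lower in 16 of 20 cases and did not pass in the other 4, with a median of -1.85. Ly6c2, a marker of inflammatory monocytes, was at 145, 129 and 174 CPM in CD4+ cells and 809, 708 and 1008 CPM in spleen. Lyz2, the lysozyme of macrophages and granulocytes, was lower by -2.77 on the log2 scale but remained at 2355, 3342 and 1738 CPM in CD4+ libraries. Genes of mast cells, basophils and eosinophils were lower in 11 of 13 tested cases, such as the basophil protease Prss34 (-6.65) and the IgE receptor chain Fcer1a (-5.41). Kit (1.38) and Ccr3 (1.30) of that list were higher. Fc receptor genes were lower in 9 of 11 cases, with Fcgr2b, the inhibitory receptor of B cells and myeloid cells, at -2.11.

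Red pulp macrophage genes went the other way. Of 33 tested members, 21 were higher in CD4+ cells than in whole spleen and 5 were lower, with a median log2 change of 1.05, against the 15.4% of all genes that were higher. Mertk, a receptor for the uptake of dying cells, was at 58.2, 72.3 and 83.9 CPM in CD4+ cells and 12.6, 37.6 and 13.1 CPM in spleen. Its relative Axl was at 230.4, 297 and 282 CPM against 62.4, 132 and 63.6 CPM. Both were higher in every CD4+ library than in any spleen, with log2 changes of 1.94 ± 0.30 and 1.73 ± 0.18 (SE, adjusted p = 0.00244 and 0.000375 by edgeR). The integrin Itgad had a log2 change of 1.72, the mannose receptor Mrc1 one of 1.53, and C1qa, a chain of complement C1q, one of 1.24 with overlapping ranges, since the spleen of VM216 (30.1, 73.5 and 33 CPM in spleen, 72.2, 115 and 117 CPM in CD4+ cells) stood above the others. Spic, the factor that red pulp macrophages depend on, and the iron exporter Slc40a1, both chosen after their values were seen, had log2 changes of 1.05 and 1.22. Adgre1, which encodes the F4/80 antigen of these macrophages, was at 166, 174 and 189 CPM and 188, 172 and 95.1 CPM and did not pass (log2 change 0.27 ± 0.21, SE). The members that were lower included the ferritin light chain Ftl1 (-0.65) and the Fc receptor Fcgr1 (-0.79).

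Summed over the macrophage list, CD4+ libraries held 107%, 101% and 148% of the spleen level of the same mouse, with sums of 6712 to 10420 CPM against 6294 to 9467 CPM. Clec4f, a gene of liver macrophages, was the member below the filter, at 0 to 4 counts. Some markers of other cell types were higher beside it, and their part in the result was not tested. Endothelial genes were higher in 5 of 21 tested cases and lower in 1. The higher ones included Stab2 (1.73), a scavenger receptor of sinus lining cells. Summed over the endothelial list, CD4+ libraries held 154% to 171% of the spleen level. Without VM216 3 endothelial genes were higher. Dendritic cell genes divided, 10 higher and 6 lower of 23, and 6 and 4 without VM216. Their summed level was 58.4%, 58.7% and 46.2% of that in spleen. Siglech, a receptor of plasmacytoid dendritic cells, was at 149, 136 and 129 CPM against 42.5, 28.6 and 39.6 CPM, and Esam and Clec4a4, which mark a splenic subset of conventional dendritic cells, had log2 changes of 1.56 and 1.25, the latter chosen after its value was seen. Xcr1 (-1.38), of the cross-presenting subset, was lower, and so were Tcf4 (-1.31), Irf8 (-0.82) and Ly6d (-2.78), which plasmacytoid cells also express. Tcf4 and Irf8 were chosen after their values were seen. As background, plasmacytoid cells and the subset marked by Esam and Clec4a4 can carry CD4 on their surface in mice. Whether such cells were part of the CD4+ preparation was not tested. With VM645-WT left out the macrophage list had 17 higher and 7 lower and a median of 0.68, with VM211 left out 14 and 2, with VM216 left out 19 and 2, and without the mouse block 11 higher and 3 lower and a median of 0.98.

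**Figure D3:**
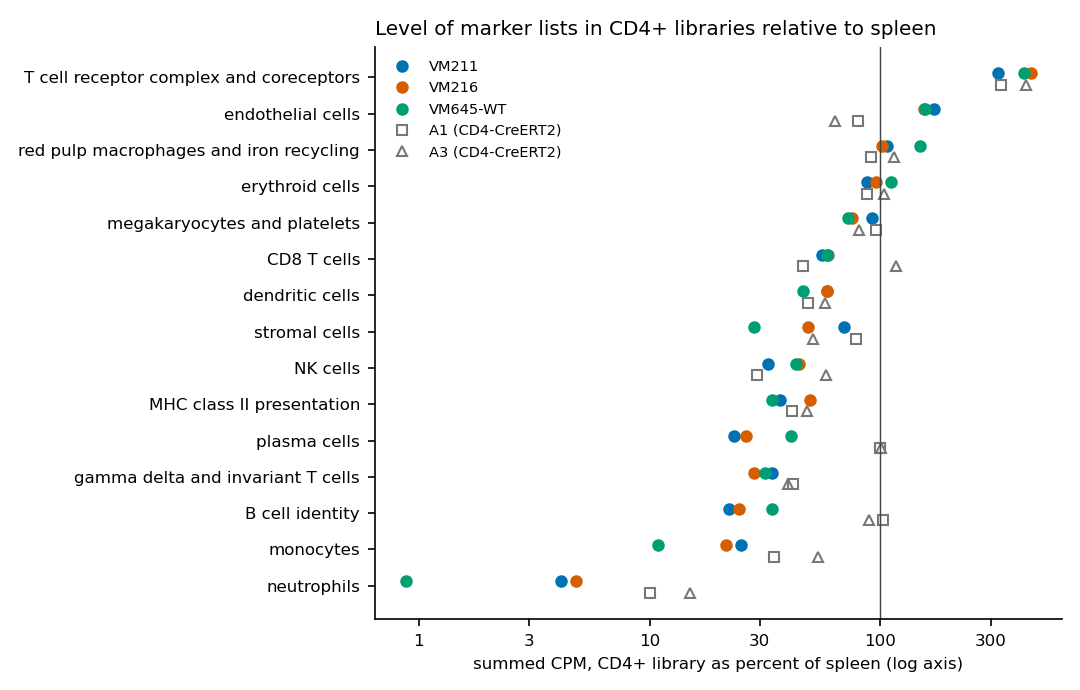
Summed CPM of 15 marker lists in the CD4+ library as a percent of the spleen library of the same mouse, on a log axis, filled circles for the 3 CD4-Cre controls and open symbols for 2 CD4-CreERT2 controls. Neutrophil lists lie lowest, at 0.880% to 4.79% in CD4-Cre mice, macrophage lists near or above 100%, and the T cell receptor list at 322% to 447%.

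Haemoglobin genes took at most 0.00727% of gene counts in any of the 6 libraries, spleens included, and of 22 tested erythroid genes 2 were higher and 2 lower. Of 35 stromal genes, 19 passed the filter, 1 was higher and 4 were lower. Their median of 0.54 turned to -0.21 without VM216, and 4 were higher without VM645-WT. The member that was higher is Tnfsf11, listed there as a ligand made by stroma, and Fn1, which encodes fibronectin, was lower at 92.1, 72.8 and 18.7 CPM against 214, 269.6 and 147 CPM. Ccl19 and Ccl21a, the chemokines of the T cell zone stroma, had at most 1 count in any library. Cytosolic ribosomal protein genes were lower in 17 of 20 cases with a median of -0.42, such as Rps18 at 621, 718 and 755 CPM against 983, 1065 and 1079 CPM. The count was 5 without VM216, 7 without VM211 and 11 without the mouse block, at medians of -0.41, -0.39 and -0.42. In CD4-CreERT2 controls the list went the other way, with 4 of 20 higher and a median of 0.34.

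**Figure D4:**
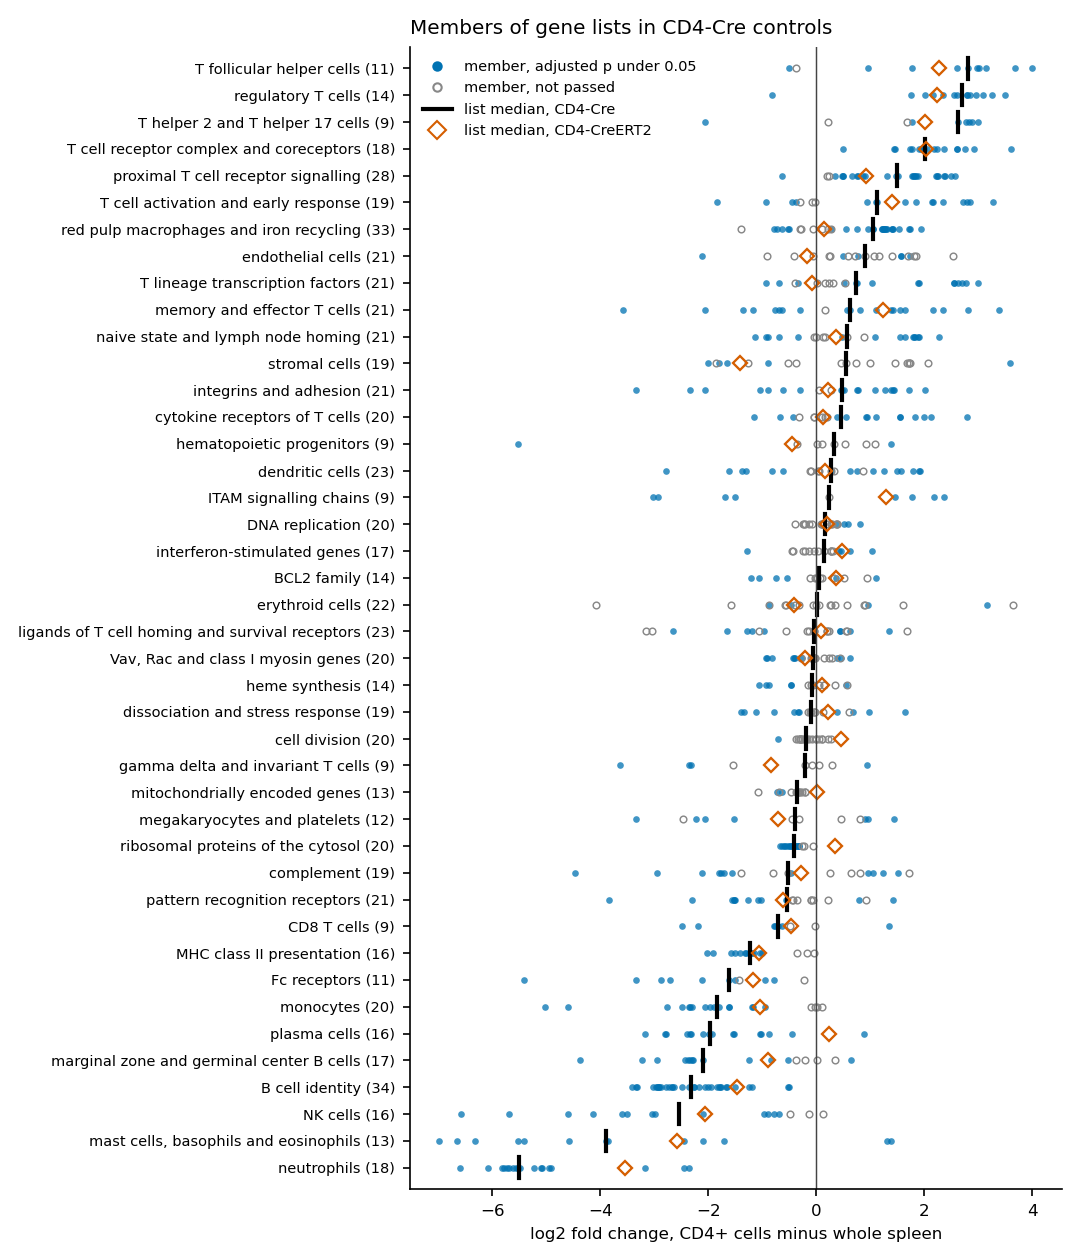
Log2 fold changes (CD4+ cells minus spleen) of the members of 42 gene lists in CD4-Cre controls, filled where the adjusted p was under 0.05, with the list median as a bar and the median in CD4-CreERT2 controls as a diamond. Numbers in parentheses are the members tested. T cell subset lists lie at the top with medians of up to 2.80 and the neutrophil list at the bottom at -5.51.

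The same contrast in CD4-CreERT2 controls, which share no library with the first, tested 16951 genes and called 1742 (10.3%) higher and 1912 (11.3%) lower. Of the 2774 genes higher in CD4-Cre controls that could be tested here, 1814 (65.4%) had a change of the same sign. Called higher were 851 (30.7%) and called lower 182. Those 851 were 50.3% of the genes this set called higher and both sets tested. Of 2824 genes lower in CD4-Cre controls, 1669 (59.1%) had a change of the same sign. Called lower were 867 (30.7%) and called higher 213. The T cell receptor list repeated with 18 of 18 higher and a median of 2.03. The regulatory list had 13 of 14 higher and a median of 2.23, and the MHC class II list 14 of 16 lower. Other lists repeated less. Proximal T cell receptor signalling had 16 of 28 higher, against 25 in CD4-Cre controls. A list of 21 T lineage transcription factors had a median of -0.09, against 0.72 there. Cd4 was at 643 and 616 CPM in CD4+ cells of A1 and A3, and at 121, 108 and 145 CPM in the spleens of A1, A2 and A3. The macrophage list had 1 of 31 members higher, Axl, and 4 lower, with a median of 0.15. Mertk was low in both tissues, at 1.9 and 4.47 CPM in CD4+ cells and 1.93, 1.66 and 4.51 CPM in spleen. Adgre1 stood well above Mertk in every library of this set and did not pass. Of 16 plasma cell genes 1 passed, which was higher, and the median was 0.24. Levels are not set against those of the first set as a test, since the tables were scaled separately.

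**Figure D5:**
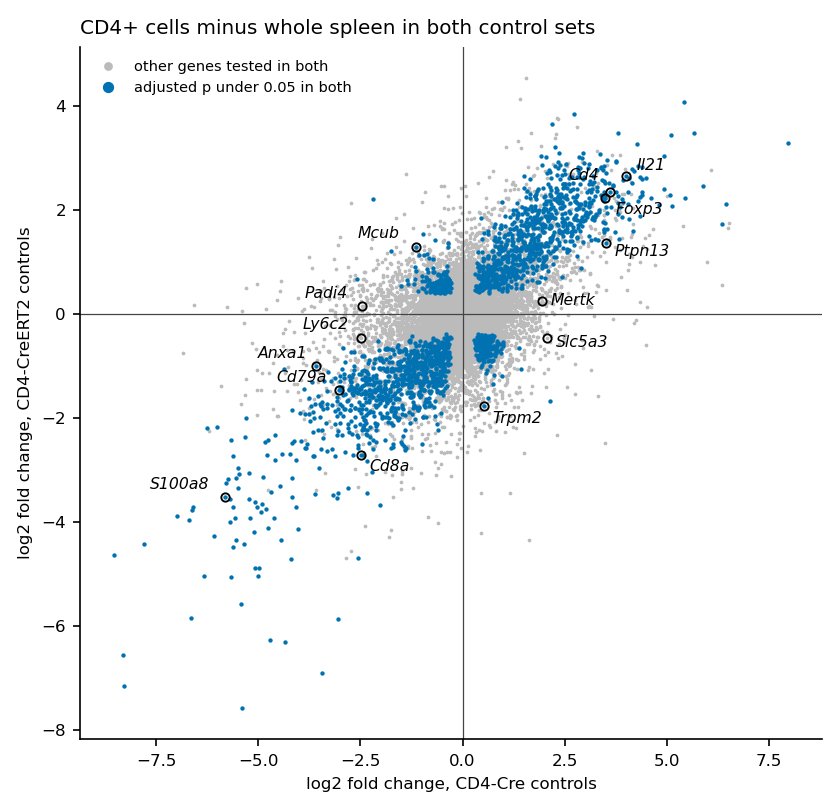
Log2 fold changes of CD4+ cells minus whole spleen in CD4-Cre controls (horizontal) and CD4-CreERT2 controls (vertical), 1 point for each gene tested in both, blue where both adjusted p-values were under 0.05. Cd4, Il21 and Foxp3 lie at the upper right and S100a8, Cd8a and Cd79a at the lower left, while Mcub and Trpm2 were called in opposite directions.

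The difference between the changes of the sets was tested itself in 18934 genes, and 1259 (6.65%) were higher and 1217 (6.43%) lower in CD4-Cre than in CD4-CreERT2 controls. Of the T cell receptor list 4 of 18 were higher, Cd4 by 1.28 ± 0.19 on the log2 scale (SE, adjusted p = 0.00615 by edgeR), and of the B cell list 12 of 34 were lower, Cd79a by -1.53 ± 0.22 (SE, adjusted p = 0.0059 by edgeR). Cd79a was at 819 and 781 CPM in the CD4+ cells of A1 and A3 and 2210.0, 2245 and 2181 CPM in the spleens, so that CD4+ cells of this set kept more of it. Of 20 ribosomal protein genes 15 were lower and the other 5 did not pass. In the macrophage list 1 of 33 passed, Ftl1, which was lower. A difference was thus not called for Mertk (1.51), although it passed in the first set and not in the second. At the extremes, Trpm2, a calcium-permeable channel, was at 49.1, 52.4 and 45.2 CPM in CD4+ cells and 33.5, 41.5 and 28.6 CPM in spleen of CD4-Cre mice, and at 3.31 and 3.96 CPM and 10.3, 11.7 and 15.4 CPM in CD4-CreERT2 mice, a difference of 2.29 ± 0.28 (SE). Mcub, a subunit of the mitochondrial calcium uniporter, went the other way, at 20.2, 25.2 and 25.8 CPM and 37.5, 66 and 57.4 CPM against 27.5 and 30.2 CPM and 12.4, 10.9 and 12.2 CPM, a difference of -2.45 ± 0.28 (SE). Padi4 (-2.64), of neutrophils, and Ly6c2 (-2.02), of monocytes, had lower changes in CD4-Cre controls. The Cre driver, the time at which the counts were deposited and the layout of their tables differ together between the sets and cannot be told apart. Without A3, which leaves 1 CD4+ library in the CD4-CreERT2 set, the difference called 0 genes higher and 3 lower by edgeR, with 2014 and 1584 at an unadjusted p under 0.05.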

How the data were processed

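RNA libraries were made from polyadenylated RNA with SMART-Seq v4 and Nextera XT, per the labels' protocols. The authors deposited raw gene counts, made with HISAT2 2.1.0 and HTSeq 0.5.4 on mm10 per the submitters' processing notes, which name GRCm38 as well for the CD4-CreERT2 set. Strand setting and annotation are not given in the sources used here, so overlapping and antisense genes cannot be told apart. Entries for unassigned reads (33.6% to 39.6% of all counts) were left out. Gene lengths are the deposited values of the CD4-CreERT2 tables.

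Counts were scaled by TMM, filtered with filterByExpr and tested with edgeR 4.0.16 (glmQLFit, glmQLFTest, Benjamini-Hochberg) in R 4.3.3; DESeq2 1.42.0 was an alternative. Both were tested on simulated data. SE is the log2 change divided by the square root of F. CD4-Cre controls were fitted with mouse as a block, since both libraries carry 1 mouse number. Their deviations from the tissue means correlated at 0.169 to 0.267 within a mouse and at -0.217 to -0.061 across mice. Such deviations cancel over the 3 mice, so the values across mice are not independent of those within a mouse. CD4-CreERT2 controls and the difference were fitted without the block. Groups hold 3 libraries each, except the 2 of CD4-CreERT2 CD4+ cells. In CD4-Cre controls, p-values rest on how the CD4+ minus spleen change spreads among the 3 mice, with 2 residual degrees of freedom. The spread of each gene is estimated in part from that of the other genes tested. In the other comparisons they treat CD4+ and spleen libraries of the same animal as independent. The members and lists were chosen with earlier results of these data known. Named genes were Cd4, Cd8a, Cd79a, Adgre1, Hbb-bs, Vav1, Myo1f and the ITAM chains, the 15 highest and 15 lowest changes of well-expressed genes without overlap, the largest changes of each list in both directions, and the 6 highest and 6 lowest differences. Promoter windows are from RefSeq, GRCm38.p6. Some results are not reported here.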

Additional observations from a re-analysis of the deposited data

Results flagged for a closer look

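The log2 change of CD4+ cells minus spleen differed between CD4-Cre and CD4-CreERT2 controls, by edgeR's test of the difference itself, for 34 of the genes named here. Over all genes tested, 6.65% were higher and 6.43% lower. Trpm2, Ptpn13, Mcub, Ccl3, Padi4 and Anxa1 were named because they were extremes of this same test. The count is therefore not read against those shares. Each value below is the change in CD4-Cre controls minus that in CD4-CreERT2 controls. Among T cell genes the difference was 1.28 for Cd4, 1.27 for Foxp3, 1.34 for Lrrc32, 1.09 for Tnfsf11, 1.07 for Cd6, 1.02 for Il2ra, 0.97 for Prkcq, 0.82 for Ubash3a, 0.78 for Gata3, 0.72 for Cd3e, 0.60 for Cd5 and 0.61 for Vav1. These genes had larger changes in CD4-Cre controls, except Vav1, which passed in neither set. Ptpn13 (2.18), Ttn (1.93) and Ephb6 (1.43) were higher in both sets.

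Trpm2 (2.29) and Kit (2.07) were higher in CD4+ cells of CD4-Cre controls and lower in those of CD4-CreERT2 controls, and Mcub (-2.45) the reverse. Dock2 (1.26) had a log2 change of 0.62 in CD4-Cre controls and -0.61 in CD4-CreERT2 controls. Myo1c (0.91) had negative changes in both sets, -0.82 and -1.69. Among B cell genes the difference was -1.53 for Cd79a, -1.50 for Cd79b, -1.56 for Pax5, -1.58 for Ly6d, -1.87 for Gcsam and -3.19 for Rgs13. It was -2.02 for Ly6c2, -2.64 for Padi4, -2.63 for Ccl3, -2.75 for Anxa1, -0.70 for Capg, -0.87 for Ftl1, -1.05 for Hcst and -0.93 for Rps18.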

How the results depend on the processing

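RLE scaling, TMM factors computed with antigen receptor, globin and mitochondrial genes set aside, no filter on low counts and DESeq2 each kept the counts of called genes within 1.5 times, in all 3 comparisons. No called gene among those named changed direction under these alternatives, but medians of some lists did: cell division went from -0.19 to 0.18 without VM645-WT and stromal genes from 0.54 to -0.21 without VM216. In CD4-Cre controls, fits without 1 mouse called 1284 to 3066 genes higher and 1504 to 2872 lower, the lowest without VM216 (1284 and 1504) and then without VM211 (1727 and 1930). With tumor libraries in the fit 956 genes were higher and 785 lower, and with a minimum of 2-fold 1260 and 1421; the cause was not tested for the former. In CD4-CreERT2 controls, fits without 1 mouse called 917 to 1364 higher and 1078 to 1758 lower, with 950 and 1078 without A1 and 917 and 1136 without A2. For the difference between the sets they called 0 to 1250 higher and 3 to 1200 lower: 0 and 3 without A3, 380 and 491 without VM216, 507 and 623 without A1, 819 and 618 without A2, and 730 and 907 without VM211. By edgeR without A3, 2014 genes were higher and 1584 lower at an unadjusted p under 0.05, and fits without A1 or without A3 leave 1 CD4+ library of that set, which is assumed to vary like the other groups.

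The mouse block was tested by leaving it out: 2244 genes were higher and 2235 lower with no block in CD4-Cre controls. With mouse as a replicate block, CD4-CreERT2 controls gave 2210 and 2580, and the difference 1527 and 1591. Of the 220 genes under the rule for named genes, the fit with no block left 33 short of the threshold. Depth limits genes of low count, such as those of Il17a and Il13, which were not tested.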

Other observations

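Memory and effector genes divided in CD4-Cre controls, with 12 of 21 higher in CD4+ cells and 8 lower. Maf, a transcription factor of helper T cells, had a log2 change of 2.34, and the annexin gene Anxa1 one of -3.59. Of 20 cytokine receptor genes 11 were higher and 3 lower (1 lower without VM216), and of 21 integrin and adhesion genes 12 were higher and 7 lower (4 lower without VM211). Among 21 pattern recognition receptors 2 were higher and 11 lower (1 and 6 without VM216), and among 17 interferon-stimulated genes 4 were higher and 1 lower (2 higher without VM216). Complement genes divided, with 4 of 19 higher, C1qa among them, and 8 lower.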
